A study of Mus musculus with 9 samples.

Results

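The 5 muscarinic acetylcholine receptor genes of the mouse, Chrm1 to Chrm5, were examined in striatal RNA of 9 embryos at E17.5. They are 5 of the 44886 genes in the count tables and were found by their Ensembl identifiers in GENCODE M21. All 5 of these genes had enough counts to enter the tests, among 16368 genes that did. The family is defined by annotation, but it was chosen from measured values, because the higher level of Chrm3 and the lower level of Chrm4 in the mutants of these same libraries were already known. The changes of the 5 genes against controls are therefore given as a description, with standard errors and intervals. Whether they passed the test over all genes is also stated, but nothing is read from it.

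Muscarinic receptors are G protein-coupled receptors for acetylcholine. M1, M3 and M5 act through Gq/11, which activates phospholipase C and raises intracellular calcium, whereas M2 and M4 act through Gi/o, which lowers cyclic AMP. In the adult striatum acetylcholine comes mostly from local cholinergic interneurons. M1 (Chrm1) is found in both types of spiny projection neuron, M4 (Chrm4) is enriched in the dSPN of the direct pathway, where it opposes dopamine D1 receptor signalling, and M2 (Chrm2) serves as an autoreceptor on cholinergic interneurons. M3 (Chrm3) is a minor striatal receptor, and M5 (Chrm5) is best known from midbrain dopamine neurons.

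The embryos fell into 3 groups of 3, labelled Control, Islet1Cre;Ebf1fl/- and Dlx5/6::Cre;Ebf1fl/-, and are called controls, Islet1Cre mutants and Dlx5/6::Cre mutants here. Both mutants combined 1 floxed and 1 null allele of Ebf1, a transcription factor of dSPN, with a Cre line. The study describes Islet1Cre as acting in dSPN and in cholinergic interneurons, and Dlx5/6::Cre as acting in all spiny projection neurons and interneurons. By its methods, heterozygous embryos served as controls, whose alleles are not further given. The labels give a C57BL/6 background for all groups, whereas the study's methods place the Islet1Cre line on B6D2F1/J. The comparison of 2 Cre lines with controls asks which changes follow the loss of Ebf1 in dSPN.

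The deposited counts per library ran from 16.5 to 41.5 M. All 7 generic spiny projection neuron markers, among them Bcl11b and Ppp1r1b, were detected in every library, and their summed level ran from 3018 to 3696 CPM (counts per 1000000 counts of the library size as scaled by TMM). Ebf1 itself was not lower in the mutants, at 264 to 470 CPM in controls, 439 to 507 in Islet1Cre mutants and 392 to 506 in Dlx5/6::Cre mutants. Counts summed over the whole gene do not separate deleted from retained exons, and the genotypes are therefore taken from the labels without a check by these counts. The study itself genotyped the embryos by PCR and reports that immunostaining found no Ebf1 protein in the striatum of either mutant at E17.5. Dlx5/6::Cre replicate 1 stood apart, with summed dividing progenitor markers at 386 CPM against 68.6 to 117 in the other 8 libraries and cortical markers at 212 against 33.7 to 104. Control replicate 3 and Islet1Cre replicate 3 held counts of Xist, at 400 and 242 CPM, together with Y-linked genes, at 9.79 and 81.5 CPM summed over 4 genes. Values without these 2 libraries and Dlx5/6::Cre replicate 1, the 3 libraries that stood apart, are given beside the results. Control replicate 2 held almost no Xist, at 0.108 CPM, beside Y-linked genes at 126 CPM. In the remaining libraries Xist ran from 354 to 871 CPM, with Y-linked genes at 0.120 CPM or less. No mutant library thus held Y-linked counts without Xist, and the part of sex in the changes was not tested. No label says that embryos of a group came from separate litters, so the errors measure the spread between these samples.

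The coding sequences of the 5 genes are related, and each lies in a single exon. The stretches below are ungapped and 75 bases long, the length of 1 read. They were chosen as the Chrm3 window whose poorest match among the other genes had the most identical bases. They show how far reads of one receptor differ from those of another. They encode the third transmembrane segment, which holds the aspartate that binds acetylcholine. Capitals mark the 54 of 75 bases that are identical in all 5 genes. In GRCm38 they lie at chr19:8678223-8678297 on the plus strand (Chrm1), chr6:36523494-36523568 on the plus strand (Chrm2), chr13:9878508-9878582 on the minus strand (Chrm3), chr2:91927557-91927631 on the plus strand (Chrm4) and chr2:112480390-112480464 on the minus strand (Chrm5).
Chrm1: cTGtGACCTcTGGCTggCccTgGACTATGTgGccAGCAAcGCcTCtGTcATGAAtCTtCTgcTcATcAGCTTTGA
Chrm2: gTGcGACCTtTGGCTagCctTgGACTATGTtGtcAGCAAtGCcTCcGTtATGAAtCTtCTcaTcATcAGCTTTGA
Chrm3: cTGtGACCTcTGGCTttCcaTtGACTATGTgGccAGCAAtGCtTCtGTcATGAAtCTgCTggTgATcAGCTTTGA
Chrm4: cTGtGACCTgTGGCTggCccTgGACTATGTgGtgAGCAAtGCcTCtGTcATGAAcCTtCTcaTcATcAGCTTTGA
Chrm5: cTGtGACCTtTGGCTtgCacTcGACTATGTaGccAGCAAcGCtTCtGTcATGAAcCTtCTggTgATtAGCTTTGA

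Within this stretch Chrm3 and Chrm4 had 62 of 75 bases in common. The closest 75 bases that could be placed side by side anywhere in their coding sequences had 10 mismatches for Chrm3 and Chrm4 and 7 for Chrm1 and Chrm4, the closest pair of the family. No 75-base window of the Chrm3, Chrm4 or Chrm5 models occurred in a transcript of another gene, whereas 3.93% of the windows of Chrm1 and 1.00% of those of Chrm2 did. Chrm1 and Chrm2 also overlap exons of Gm22820 and 9330158H04Rik on the opposite strand. The library kit keeps the strand, but the strand setting of the counting is not given in the sources used here, so reads of these pairs may not be separated.

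Chrm3 was low in controls and several-fold higher in both mutants. Its raw counts were 80, 109 and 72 in control replicates 1 to 3, 584, 798 and 339 in the Islet1Cre mutants, and 464, 732 and 926 in the Dlx5/6::Cre mutants. Scaled for library size this was 2.41, 2.95 and 2.30 CPM in controls, 26.2, 18.7 and 20.2 CPM in the Islet1Cre mutants, and 16.7, 22.1 and 25.0 CPM in the Dlx5/6::Cre mutants. Every mutant embryo lay above every control, and the lowest mutant value, in Dlx5/6::Cre replicate 1, was far above the highest control value. The group means were 2.55 ± 0.348, 21.7 ± 3.97 and 21.2 ± 4.22 CPM (SD, n = 3 each). The log2 fold change over control was 3.08 (SE 0.20, 95% interval 2.64 to 3.53) in the Islet1Cre mutants, an 8.47-fold higher level, and 3.05 (SE 0.20, 95% interval 2.61 to 3.50) in the Dlx5/6::Cre mutants, an 8.31-fold higher level. Without the 3 libraries that stood apart these were 3.06 and 3.13.

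Chrm4, the dSPN-enriched receptor, went the other way. Its raw counts were 525, 699 and 521 in controls, 196, 322 and 203 in the Islet1Cre mutants, and 141, 207 and 261 in the Dlx5/6::Cre mutants. The levels were 15.8, 18.9 and 16.6 CPM in controls, 8.80, 7.56 and 12.1 CPM in the Islet1Cre mutants, and 5.06, 6.25 and 7.04 CPM in the Dlx5/6::Cre mutants. All mutants lay below all controls, and all Dlx5/6::Cre mutants lay below all Islet1Cre mutants. The group means were 17.1 ± 1.61, 9.48 ± 2.34 and 6.12 ± 0.994 CPM (SD, n = 3 each). The log2 fold change over control was -0.86 (SE 0.19, 95% interval -1.28 to -0.44) in the Islet1Cre mutants, a 1.82-fold lower level, and -1.48 (SE 0.19, 95% interval -1.91 to -1.05) in the Dlx5/6::Cre mutants, a 2.79-fold lower level. Islet1Cre replicate 3, which held both Xist and Y-linked counts, had the highest Chrm4 level among the mutants, and without the 3 libraries that stood apart the log2 fold changes were -1.09 and -1.38. In bulk tissue, fewer cells of a type and less RNA per cell cannot be told apart.

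**Figure D1:**
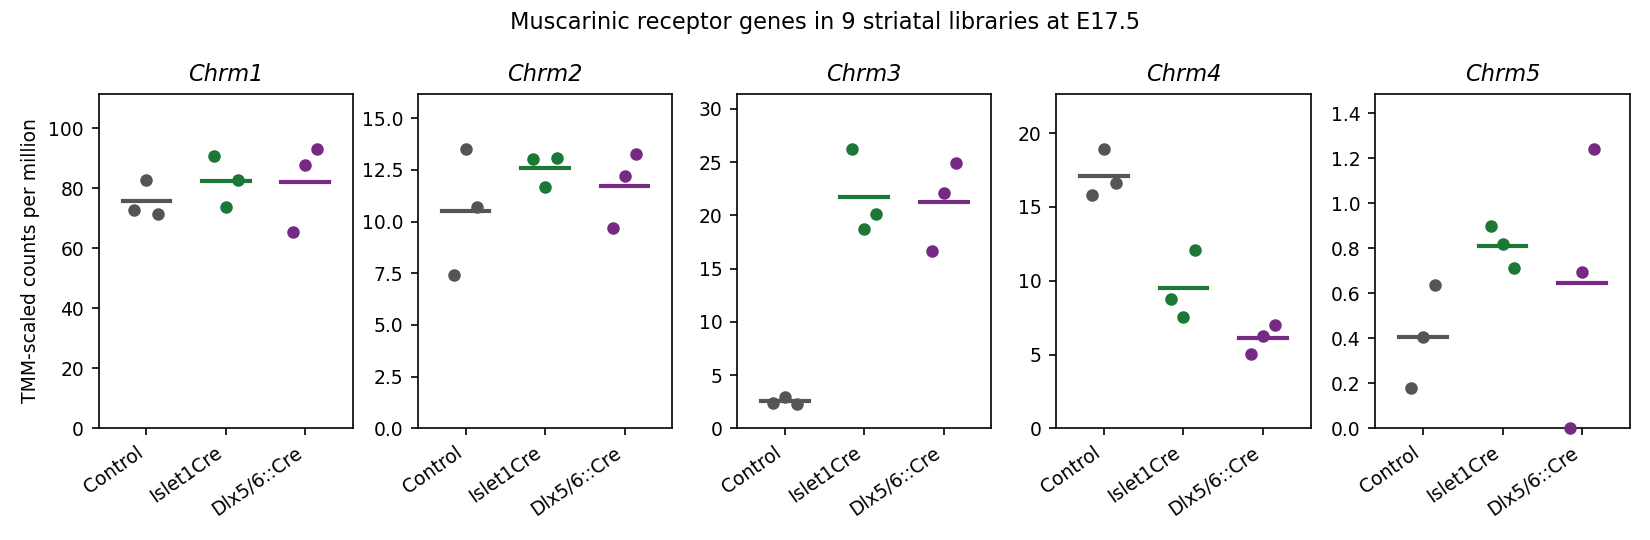
TMM-scaled CPM (vertical axis, linear from 0, a separate scale for each gene) of the 5 muscarinic receptor genes. Each point is 1 embryo, in replicate order from left to right, and each line is the mean of 3 embryos of a genotype. Chrm3 sits at 2.30 to 2.95 in controls and at 16.7 to 26.2 in the mutants, Chrm4 at 15.8 to 18.9 in controls and at 5.06 to 12.1 in the mutants, and the groups overlap for Chrm1 and Chrm2.

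Chrm1, which encodes the main excitatory muscarinic receptor of striatal projection neurons, was the most abundant of the 5 by counts and moved little. It was at 72.7, 82.7 and 71.5 CPM in controls, 90.8, 73.7 and 82.6 CPM in the Islet1Cre mutants, and 65.4, 87.8 and 92.9 CPM in the Dlx5/6::Cre mutants. The 3 groups overlapped. The log2 fold change was 0.12 (SE 0.13, 95% interval -0.16 to 0.41) in the Islet1Cre mutants and 0.12 (SE 0.13, 95% interval -0.17 to 0.40) in the Dlx5/6::Cre mutants. The lowest of the 9 values was that of Dlx5/6::Cre replicate 1, and without the 3 libraries that stood apart the log2 fold changes were 0.08 and 0.22.

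Chrm2, the autoreceptor gene, was at 7.40, 13.5 and 10.7 CPM in controls, 13.02, 11.7 and 13.1 CPM in the Islet1Cre mutants, and 9.69, 12.2 and 13.3 CPM in the Dlx5/6::Cre mutants. The controls spread most, and their range covered that of both mutants. The log2 fold changes were 0.26 (SE 0.21, 95% interval -0.20 to 0.71) and 0.16 (SE 0.21, 95% interval -0.30 to 0.61), and 0.24 and 0.28 without the 3 libraries that stood apart. Summed levels of 6 cholinergic interneuron markers, the cells in which Chrm2 is best known, ran from 41.5 to 62.6 CPM in controls, 55.4 to 58.3 in Islet1Cre mutants and 34.7 to 58.9 in Dlx5/6::Cre mutants, and none of the 6 markers was at 0 in any library.

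Chrm5 was near the limit of detection. Its raw counts were 6, 15 and 20 in controls, 20, 35 and 12 in the Islet1Cre mutants, and 0, 23 and 46 in the Dlx5/6::Cre mutants. The 0 came from Dlx5/6::Cre replicate 1, where up to 3 counts, or 0.108 CPM, would still be compatible with it by counting error alone. All Islet1Cre values, at 0.714 to 0.898 CPM, lay above all controls, at 0.181 to 0.638 CPM, while the Dlx5/6::Cre values ran from 0 to 1.24 CPM. The log2 fold changes were 1.00 (SE 0.82, 95% interval -0.81 to 2.80) and 0.70 (SE 0.81, 95% interval -1.08 to 2.49), too wide to give a direction. Without the 3 libraries that stood apart they were 1.52 and 1.70, and without Dlx5/6::Cre replicate 3 the second was -0.17.

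Against controls, 1 of the 5 genes (Chrm3) passed an adjusted p of 0.05 in the Islet1Cre mutants and 2 of the 5 (Chrm3 and Chrm4) did in the Dlx5/6::Cre mutants. Of all genes tested, 0.971% passed in the Islet1Cre mutants (0.47% higher and 0.501% lower) and 2.39% in the Dlx5/6::Cre mutants (1.05% higher and 1.34% lower). The groups did not overlap for 3 of the 5 genes (Chrm3 and Chrm5 higher, Chrm4 lower) in the Islet1Cre mutants, beside 15.2% of all genes, and for 2 of the 5 (Chrm3 higher, Chrm4 lower) in the Dlx5/6::Cre mutants, beside 21% of all genes. Because these contrasts were known when the family was chosen, nothing is read from these counts. The 2 comparisons share the same 3 controls.

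**Figure D2:**
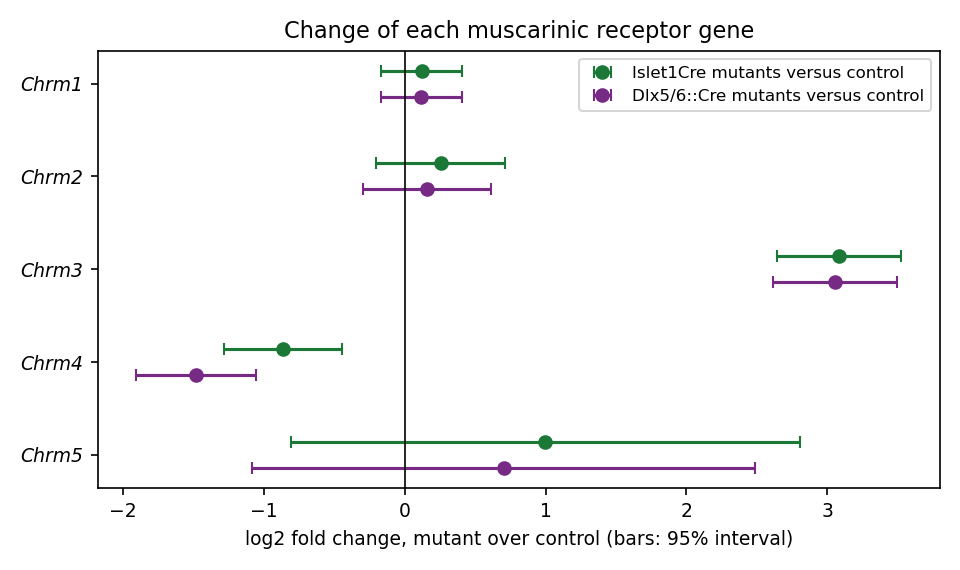
The log2 fold change of each muscarinic receptor gene, mutant over control (horizontal axis), with its 95% interval as a bar, for the Islet1Cre mutants (green) and the Dlx5/6::Cre mutants (purple), 3 embryos per group. The intervals of Chrm3 lie above 0 (2.64 to 3.53 and 2.61 to 3.50), those of Chrm4 lie below 0, and those of Chrm1, Chrm2 and Chrm5 include 0.

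The embryos carried code names with one of 2 prefixes in their labels, one for the Islet1Cre mutants and controls 1 and 2, the other for the Dlx5/6::Cre mutants and control 3, so prefix and genotype overlap in part. Within the first prefix (3 mutants, 2 controls) the log2 ratio of mean CPM, mutant to control, was 3.02 for Chrm3, -0.87 for Chrm4, 0.08 for Chrm1, 0.27 for Chrm2 and 1.47 for Chrm5. Within the second (3 mutants, 1 control) it was 3.21 for Chrm3, -1.44 for Chrm4, 0.20 for Chrm1, 0.13 for Chrm2 and 0.02 for Chrm5. Chrm3 was higher and Chrm4 lower within each prefix. These values were known when the family was chosen, and the 1 control of the second prefix is 1 of the libraries that stood apart. They are therefore a description, and nothing is read from them about the prefix.

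The direct comparison of the 2 mutants is another contrast, but it uses the same mutant libraries whose levels were known when the family was chosen. Its p-values are therefore not independent of that choice and are given as a description. In the Dlx5/6::Cre mutants relative to the Islet1Cre mutants, the log2 fold change of Chrm3 was -0.03 (SE 0.18, 95% interval -0.42 to 0.36, edgeR quasi-likelihood adjusted p = 0.988), so the data leave room for a difference of that size in either direction. Chrm4 was lower in the Dlx5/6::Cre mutants by a log2 fold change of -0.62 (SE 0.19, 95% interval -1.05 to -0.19), lower in all 3 of these embryos than in any Islet1Cre mutant. The unadjusted p was 0.00886, but the edgeR adjusted p over all genes was 0.868, so the difference did not pass. Without the 3 libraries that stood apart it was -0.30, with an edgeR adjusted p of 0.992. Over its 17 alternatives the adjusted p of Chrm4 ran from 0.386 to 1.00. For Chrm1, Chrm2 and Chrm5 the log2 differences were -0.0036 (95% interval -0.29 to 0.28), -0.10 (95% interval -0.55 to 0.36) and -0.29 (95% interval -2.02 to 1.43), with edgeR adjusted p of 0.997, 0.961 and 0.969. None of the 5 genes passed, beside 0% of all genes. The groups did not overlap for 1 of the 5 (Chrm4), beside 10.4% of all genes. By edgeR, 844 genes had an unadjusted p below 0.05 between the mutants, and DESeq2's Wald test called 17 genes.

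Levels of different receptors were compared per kb of exon, in CPM per kb. In controls Chrm4 (11.9 ± 1.12) and Chrm1 (11.7 ± 0.953) were at the top and did not differ beyond their spread. Chrm2 followed at 1.74 ± 0.504, then Chrm3 at 0.408 ± 0.0557 and Chrm5 at 0.255 ± 0.143, whose ranges overlapped (SD, n = 3 each). In the Islet1Cre mutants the order became Chrm1 (12.7 ± 1.32), Chrm4 (6.58 ± 1.62), Chrm3 (3.47 ± 0.635), Chrm2 (2.08 ± 0.130) and Chrm5 (0.507 ± 0.0577), with no overlap between neighbours. In the Dlx5/6::Cre mutants Chrm1 (12.7 ± 2.26) was followed by Chrm4 (4.25 ± 0.691) and Chrm3 (3.40 ± 0.675), which overlapped, then by Chrm2 (1.94 ± 0.305) and Chrm5 (0.403 ± 0.389). Chrm3 thus moved from below Chrm2 in controls to above it in both mutants. The annotated models of Chrm4 (1440 bases) and Chrm5 (1599 bases) hold only 3 exonic bases outside the coding sequence, whereas those of Chrm1, Chrm2 and Chrm3 hold 5107, 4655 and 4486 such bases, so levels per kb compare differently complete gene models. With the longest transcript as length, Chrm3 was at 0.588, 5.01 and 4.90 CPM per kb in the 3 groups, which put its mean above that of Chrm4 in the Dlx5/6::Cre mutants, with ranges that overlapped in both mutants. Changes of 1 gene between groups do not depend on its length.

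The balance between Chrm3 and Chrm4 can be read within each library without any scaling. Chrm3 had 0.152, 0.156 and 0.138 counts for each count of Chrm4 in the 3 controls. It had 2.98, 2.48 and 1.67 in the Islet1Cre mutants, and 3.29, 3.54 and 3.55 in the Dlx5/6::Cre mutants. Chrm4 counts therefore exceeded Chrm3 counts in all 3 controls and were fewer than Chrm3 counts in all 6 mutants. The lowest mutant ratio was that of Islet1Cre replicate 3, and Dlx5/6::Cre replicate 1 lay close to the other 2 embryos of its group. Set against Chrm1, Chrm3 had 0.0336 ± 0.00180 counts for each Chrm1 count in controls, 0.262 ± 0.0233 in Islet1Cre mutants and 0.258 ± 0.00899 in Dlx5/6::Cre mutants, while Chrm2 kept 0.138 ± 0.0322, 0.153 ± 0.00878 and 0.143 ± 0.00458 (SD, n = 3 each).

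As shares of the summed level per kb, Chrm4 made up 45.5 to 46.0% of the muscarinic total in controls, 22.6 to 31.1% in Islet1Cre mutants and 18.2 to 19.7% in Dlx5/6::Cre mutants. Chrm3 made up 1.46 to 1.63% in controls, 11.96 to 15.5% in Islet1Cre mutants and 14.8 to 15.3% in Dlx5/6::Cre mutants. The total itself was 25.9 ± 2.58, 25.3 ± 2.85 and 22.6 ± 4.29 CPM per kb in controls, Islet1Cre and Dlx5/6::Cre mutants (SD, n = 3 each), and these ranges overlapped. Grouped by the G protein they use, Chrm1, Chrm3 and Chrm5 together were at 12.3 ± 1.00, 16.7 ± 1.96 and 16.5 ± 3.30 CPM per kb, whereas Chrm2 and Chrm4 together were at 13.6 ± 1.60, 8.66 ± 1.72 and 6.19 ± 0.994. The genes for Gi/o-coupled receptors thus made up slightly more than those for Gq/11-coupled ones in the controls and less in both mutants, on this scale per kb. These sums follow the members that chose the family and are a description.

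**Figure D3:**
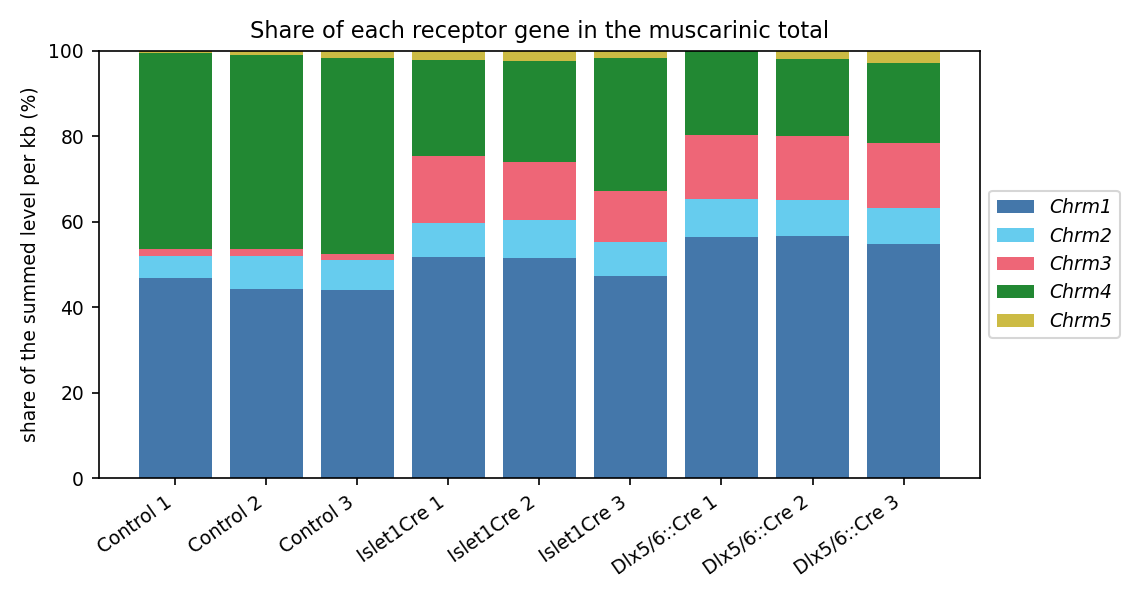
Share of each muscarinic receptor gene in the summed level per kb of all 5 (vertical axis, percent), 1 bar for each of the 9 libraries. The Chrm4 share (green) is 45.5 to 46.0% in controls and 18.2 to 31.1% in mutants, the Chrm3 share (red) is 1.46 to 1.63% in controls and 11.96 to 15.5% in mutants, and Chrm1 (dark blue) is the largest share in every mutant library.

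Cell type markers moved with these changes in part. The summed level of 10 dSPN markers was 1431 to 1726 CPM in controls, 1206 to 1356 in Islet1Cre mutants and 924 to 1148 in Dlx5/6::Cre mutants. Of the 10, 3 (Slc35d3, Zfp521 and Plxnd1) passed as lower in each mutant. Over all genes tested, 0.501% in the Islet1Cre and 1.34% in the Dlx5/6::Cre mutants passed as lower. The study had named these 3 as deregulated in the same libraries, so nothing is read from their passing. Of this list, Plxnd1, at 469, 177 and 129 CPM on average, and Zfp521, at 150, 61.9 and 33.8, fell most in CPM. The lower sum in the mutants came mainly from them. Tac1 and Pdyn were lower on average in both mutants without passing. Isl1, at 177, 177 and 134, and Foxp2, at 151, 155 and 118 CPM, were near controls in the Islet1Cre mutants. The dopamine receptor gene Drd1, in the same list, was not lower, at 47.3 ± 17.4, 75.2 ± 5.24 and 68.5 ± 9.65 CPM (SD, n = 3 each). Nor were Eya1, at 3.67, 5.18 and 5.39 CPM, and Ebf1, the deleted gene, which the list includes. The 6 iSPN markers found in the tables summed to 501 to 572, 524 to 607 and 557 to 660 CPM, and none passed. Of the 7 generic spiny projection neuron markers none passed in the Islet1Cre mutants, and Foxp1, a transcription factor gene, passed as lower in the Dlx5/6::Cre mutants with a log2 fold change of -0.53. No marker of these lists was at 0 in any library. Of the 8 cortical excitatory neuron markers none passed, and their sum was 35.9 to 85.3 CPM in controls, 33.7 to 65.0 in Islet1Cre mutants and 89.2 to 212 in Dlx5/6::Cre mutants. Dividing progenitor markers (6 genes) ran from 68.6 to 96.2, 95.9 to 117 and 85.0 to 386 CPM. The part of these markers in the level of Chrm4 and of the other receptors was not tested.

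**Figure D4:**
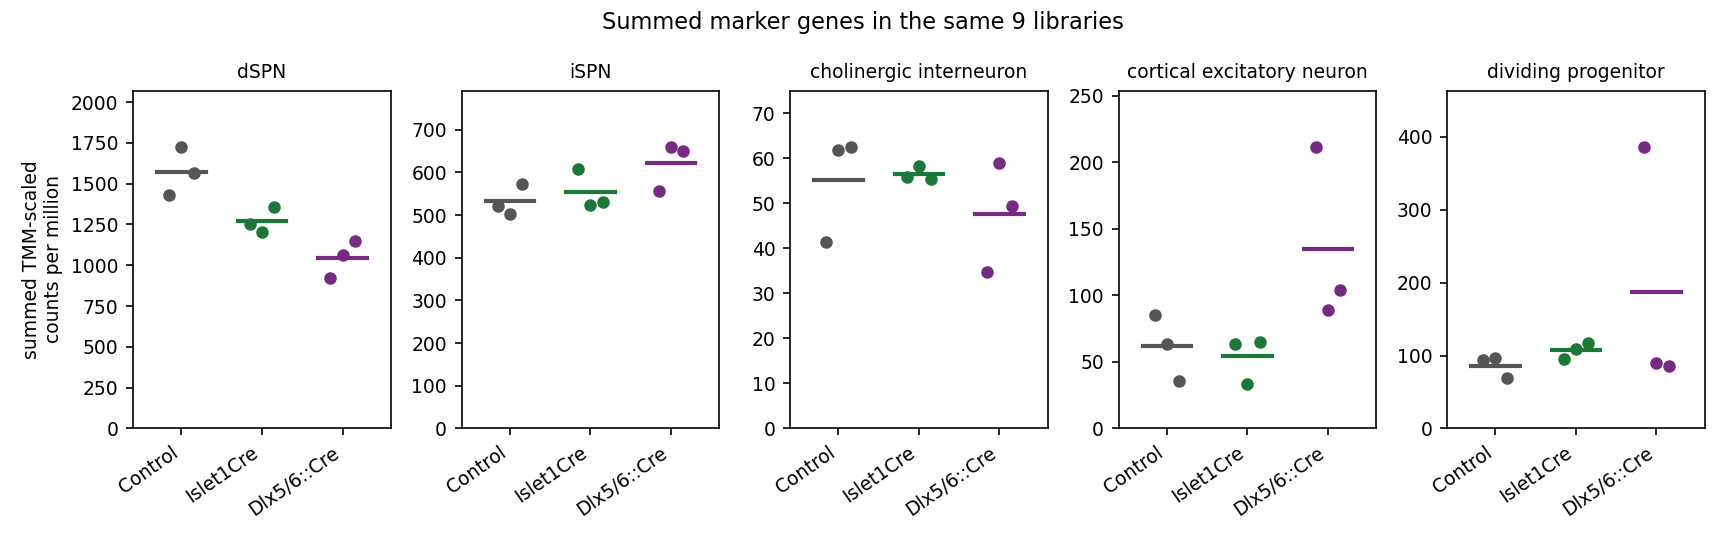
Summed TMM-scaled CPM (vertical axis, linear from 0, a separate scale for each list) of the marker genes of 5 cell types. Each point is 1 embryo and each line the mean of 3. The dSPN sum runs from 1431 to 1726 in controls and from 924 to 1148 in the Dlx5/6::Cre mutants. The iSPN and cholinergic sums overlap between genotypes. Dlx5/6::Cre replicate 1 is the single high point for dividing progenitor markers (386). For cortical markers it is the highest (212), and all 3 Dlx5/6::Cre embryos, from 89.2 up, lie above every other embryo.

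The other genes of acetylcholine signalling mostly did not pass. Of 62 listed genes, 51 had enough counts, and in each mutant 2 of the 51 passed the edgeR quasi-likelihood test over all genes, both lower and none higher, beside 0.971% of all genes tested (0.501% lower) in the Islet1Cre and 2.39% (1.34% lower) in the Dlx5/6::Cre mutants. The median log2 fold change of the 51 was -0.016 in the Islet1Cre and -0.017 in the Dlx5/6::Cre mutants, against -0.0016 and 0.011 over all genes tested. The 2 that passed were the same in both comparisons, Rgs4 and Grk5, and both belong to the 10 receptor regulators. The lists were drawn up with earlier results of these data known.

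Rgs4 encodes a GTPase-activating protein that shortens signalling by Gi/o and Gq proteins. It was at 411, 374 and 447 CPM in controls, 111, 93.7 and 214 CPM in the Islet1Cre mutants, and 47.3, 97.9 and 88.3 CPM in the Dlx5/6::Cre mutants. All mutants lay below all controls. Rgs4 had a log2 fold change of -1.56 (SE 0.31, edgeR adjusted p = 0.0455) in the Islet1Cre mutants and -2.40 (SE 0.32, edgeR adjusted p = 0.00429) in the Dlx5/6::Cre mutants. The first call is close to the threshold. It was lost when any 1 of Control replicates 1, 2 or 3, Islet1Cre replicates 1 or 2 or Dlx5/6::Cre replicate 3 was left out, with values from -1.62 to -1.34 and edgeR adjusted p from 0.0668 to 0.239. With the code prefix as covariate both calls of Rgs4 were lost, at -1.49 and -2.52 with edgeR adjusted p of 0.156 and 0.0527.

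Grk5 encodes a kinase that phosphorylates activated receptors. It was at 38.3, 36.7 and 34.2 CPM in controls, 14.3, 15.5 and 19.9 CPM in the Islet1Cre mutants, and 11.7, 16.5 and 16.8 CPM in the Dlx5/6::Cre mutants. Again the mutants lay below every control, with little spread within groups. Its log2 fold changes were -1.14 (SE 0.16, edgeR adjusted p = 0.0116) and -1.28 (SE 0.16, edgeR adjusted p = 0.00297). The first call was lost without Control replicate 1, Islet1Cre replicate 1 or Islet1Cre replicate 2, at values from -1.10 to -1.05 and edgeR adjusted p from 0.065 to 0.0854. The second was lost with the code prefix as covariate, at -1.19 and an edgeR adjusted p of 0.0872. The other 8 regulators, among them Rgs9, the arrestins Arrb1 and Arrb2, and Grk2, did not pass.

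None of the 7 tested genes of acetylcholine supply and breakdown passed (of 8 listed), with log2 fold changes from -0.21 to 0.12 in the Islet1Cre mutants and from -0.50 to 0.39 in the Dlx5/6::Cre mutants. Chat, which encodes the enzyme that makes acetylcholine, was at 6.56 ± 1.56, 7.09 ± 0.530 and 5.59 ± 1.65 CPM in controls, Islet1Cre and Dlx5/6::Cre mutants (SD, n = 3 each). None of the 7 tested nicotinic receptor subunits passed (of 16 listed), with changes from -0.32 to 0.40 and from -0.21 to 0.13. The G proteins and effectors of the 2 receptor classes did not pass either. This held for 16 tested genes of the Gq/11 arm, such as phospholipase C genes, at -0.56 to 0.66 and -1.07 to 0.59, and for 11 of the Gi/o arm, such as Adcy5, at -0.28 to 0.72 and -0.42 to 1.11. The medians over the Gq/11 arm were -0.04 and 0.09, and those over the Gi/o arm were 0.05 and 0.03. The Gi/o list also holds Gnal, whose product Golf stimulates adenylyl cyclase and is not a Gi/o protein, and without it, a choice made after the values were seen, the medians over the remaining 10 genes were 0.05 and 0.04.

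**Figure D5:**
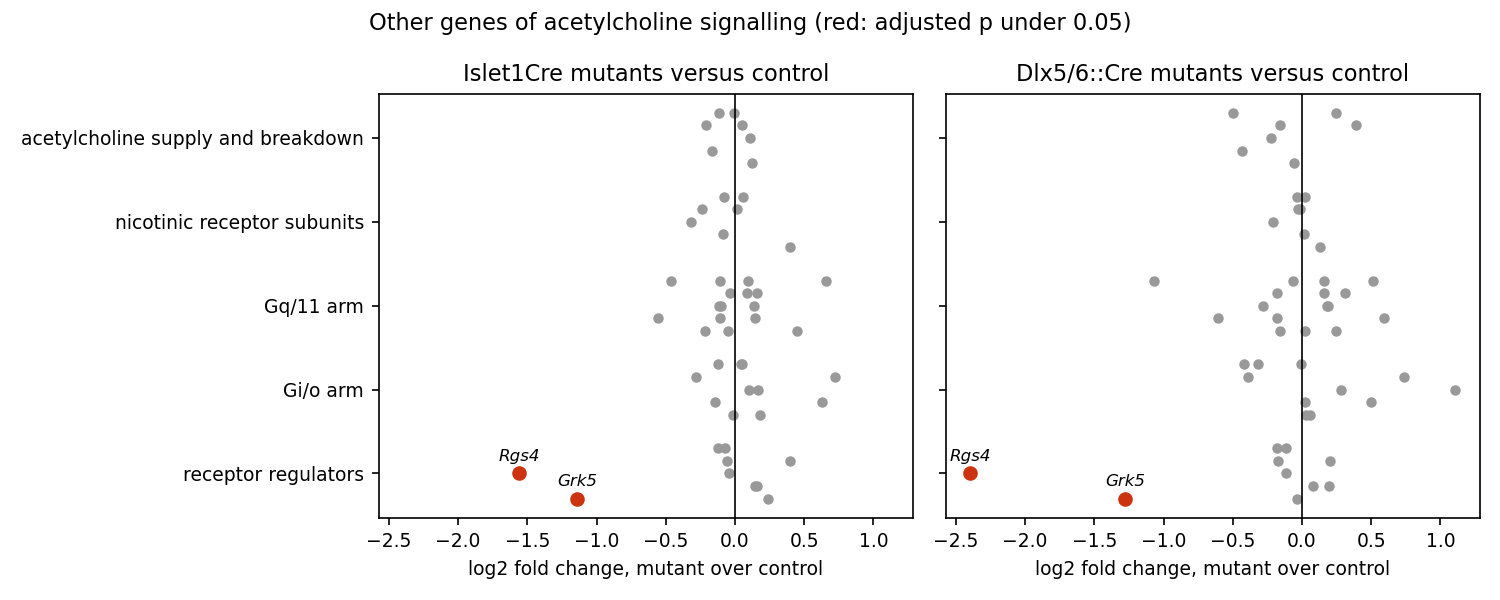
The log2 fold change, mutant over control (horizontal axis), of 51 other genes of acetylcholine signalling, in 5 lists (vertical axis, points spread within a list for legibility), for the Islet1Cre mutants (left) and Dlx5/6::Cre mutants (right). Each point is 1 gene, and the 2 red points per panel, Rgs4 and Grk5 at -1.56 and -1.14 (left) and -2.40 and -1.28 (right), are those with an adjusted p below 0.05.

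The genes whose pattern over the 9 libraries was most like that of Chrm3 and Chrm4 were found by the root mean square difference of log2 CPM, each gene taken relative to its own control mean. For Chrm3 they were Klf14 (0.49), a transcription factor gene, Lrat (0.54), an enzyme of retinol metabolism, Fcrla (0.58), Avpr1a (0.61), a vasopressin receptor, and Gcm2 (0.61). These were low genes, at 0.0393 to 1.146 CPM in controls and 0.412 to 6.44 CPM in the mutants on average, compared with 2.55 and 21.2 to 21.7 CPM for Chrm3. For Chrm4 they were Hpcal1 (0.18), a neuronal calcium sensor, Chst15 (0.21), a sulfotransferase, 1810020O05Rik (0.21), Gm15337 (0.21) and Gpr26 (0.21), a receptor. The mean levels of Hpcal1 were 42.2, 21.0 and 16.7 CPM in controls, Islet1Cre and Dlx5/6::Cre mutants, and those of Gpr26 were 46.4, 24.5 and 18.9 CPM. Chst15 was at 82.9, 39.0 and 26.5 CPM, so each of these genes, like Chrm4, was lower on average in the Dlx5/6::Cre than in the Islet1Cre mutants. These genes were chosen for their likeness to the receptors in these same libraries, so no test was made.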

How the data were processed

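Striatal polyadenylated RNA of 9 embryos was sequenced, 1 library each, and groups were taken from the sample titles. The authors deposited raw counts of reads per Ensembl gene, without normalization, which their methods describe as made with the Eoulsan pipeline: reads were filtered, mapped with STAR 2.4.0k, kept if they matched a single position, and counted with HTSeq-count 0.5.3. Keeping single matches lowers genes with near-identical copies. From these counts, edgeR 4.0.16 in R 4.3.3 was fitted to all 9 libraries with genotype as the only term. Genes were kept by filterByExpr with a minimum of 10 counts, library sizes were scaled with TMM, and quasi-likelihood tests were adjusted by Benjamini-Hochberg over 16368 genes at a threshold of 0.05. Standard errors are the log2 fold change divided by the root of the F statistic, and 95% intervals use the degrees of freedom of the fit. CPM are counts per 1000000 counts of the TMM-scaled library size. Names and positions come from GENCODE M21 on GRCm38, which held 44048 of the 44886 identifiers. The fit was checked on simulated counts. With 16.5 to 41.5 M counts per library, genes such as Chrm5 with under 50 counts are imprecise, and count limits cover counting error only.

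The members and all lists were chosen with earlier results of these data known. Named were the 5 receptors, Ebf1, genes of the 5 acetylcholine signalling lists past the threshold in at least 1 comparison, and the 5 genes most like Chrm3 and Chrm4 in log2 CPM with a prior count of 2. Other list and marker genes serve as examples chosen after their values were seen. Libraries of a group never agreed within sampling noise. Alternatives were DESeq2 1.42.0 with its Wald test, its size factors in edgeR, no filter or a minimum count of 50, only the 6 samples compared, a block for replicate number, the embryo code prefix as covariate, the longest transcript as length, each library left out in turn and, added after seeing the data, 3 libraries left out together.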

Additional observations from a re-analysis of the deposited data

How the results depend on the processing

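Chrm3 stayed higher and Chrm4 lower than controls in both mutants under all 17 alternatives. Chrm3 passed the threshold in all 17 in each mutant. Chrm4 passed in 16 of the 17 in the Dlx5/6::Cre mutants and in 6 in the Islet1Cre mutants. These contrasts were known when the family was chosen, so nothing is read from this. Leaving out single libraries gave 2.92 to 3.20 and 2.91 to 3.20 for Chrm3 and -1.07 to -0.72 and -1.60 to -1.36 for Chrm4 (log2, Islet1Cre then Dlx5/6::Cre mutants).

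Genes called in the Islet1Cre mutants numbered 159, and 311 with no filter, 395 by DESeq2, 259 with 6 samples, 61 with the prefix covariate and 252 without the 3 libraries that stood apart. They ran from 15 without Islet1Cre replicate 2 to 397 without Dlx5/6::Cre replicate 1. In the Dlx5/6::Cre mutants 392 became 708, 873, 181 and 32 in the first 4 of these settings, and 143 without Control replicate 1 to 613 without Dlx5/6::Cre replicate 1. Between the mutants 0 became 13, 17, 2, 1 and 7 in all 5 settings, and 0 to 4 with 1 library left out. Called genes of acetylcholine signalling went from 2 to 4, 5 and 1 (no filter, DESeq2, prefix) and 0 to 4 with 1 library left out in the Islet1Cre mutants, and to 6, 7 and 0, and 2 to 5, in the Dlx5/6::Cre mutants. Why these counts moved was not tested.

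The Chrm5 change in the Dlx5/6::Cre mutants was 0.056 with the prefix covariate, -0.17 to 1.25 with 1 library left out and 1.70 without the 3 libraries. Between the mutants, signs turned for small differences that never passed. With the prefix covariate Chrm1 was 0.12 and Chrm3 0.19. Without the 3 libraries Chrm1, Chrm2, Chrm3 and Chrm5 were 0.13, 0.045, 0.071 and 0.18. With 1 library left out they ran from -0.11 to 0.14, -0.21 to 0.022, -0.17 to 0.13 and -1.17 to 0.25. The cause was not tested.

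Embryos share replicate numbers between genotypes. The mean correlation of their deviations was -0.02 over 9 same-numbered pairs and 0.01 over 18 pairs of different number. Where deviations are taken from group means, these means are tied to each other, so the second is no separate yardstick. Same-numbered pairs with an Islet1Cre embryo ran from -0.228 to -0.038, and the other same-numbered pairs ran from 0.077 to 0.178. These values therefore do not decide whether the numbers pair the embryos. With the block the counts of called genes were 143, 363 and 0, and the Chrm3 changes were 3.09 and 3.05.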
